A study of Homo sapiens with 8 samples.

Results

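The isoforms ERβ5 and ERβ1 of estrogen receptor beta were compared directly in the 2 libraries labelled ERb5 and the 2 labelled ERb1, which are 4 of the 8 RNA sequencing libraries of the study. All genes that passed a low-count filter were tested, 13915 of 23228 genes listed. The label of every library is U87 MG, a human glioblastoma line long in use, and the cells grew in DMEM with fetal bovine serum. ERb1 and ERb5 cells share a background: ERβ, the product of ESR2, had been knocked out with CRISPR/Cas9 (ERb_KO), and an isoform was then returned, ERβ1 in ERb1 and ERβ5 in ERb5. Unmodified cells (control) and ERb_KO cells, 2 libraries each, entered the same fit and are given below as levels. The labels do not say whether a group was a clone, how the isoform was delivered, or whether a group's 2 libraries represent separate cultures. P-values therefore measure only the spread between these libraries, which may be technical.

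ERβ is a nuclear receptor that binds estrogens and acts on transcription at estrogen response elements or through other factors. ERβ1 is the full-length form. In ERβ5, alternative splicing replaces the carboxy-terminal end of the ligand-binding domain. ERβ has been studied in glioblastoma as a restraint on growth, and its link to inflammatory transcription, where it can oppose NF-kB, is known from several tissues.

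The 4 libraries held 26760897 and 48076414 gene reads in ERb1 and 34449442 and 27513034 in ERb5. ESR2 had 6 and 18 reads in ERb1, 7 and 10 in ERb5, 23 and 21 in ERb_KO and 25 and 20 in control. The libraries given an isoform thus held no more ESR2 reads than the knockout, and ESR2 did not pass between ERb5 and ERb1 (log2 change -0.19 ± 0.48 (SE), adjusted p = 0.881). Here and throughout, p is that of the quasi-likelihood test in edgeR after Benjamini-Hochberg adjustment across the 13915 genes. Gene counts cannot separate isoforms, so a direction below is a direction between libraries labelled ERb5 and ERb1. The glioblastoma label was not borne out either. In all 8 libraries, 20 of 20 luminal breast epithelium markers reached 10 CPM (gene reads scaled to a common library total). Of the mesenchymal glioma markers 6 of 20 did so, with POSTN at 0. That level was also reached by 2 of 10 neural progenitor and oligodendrocyte markers, 1 of 8 astrocyte markers and 2 of 11 neuron markers. In the neural progenitor and oligodendrocyte list SOX2 was 11.3 to 30.1 CPM, whereas OLIG1 and OLIG2 were at 0. Immune markers were nearly absent (9 of 10 under 1 CPM in every library, AIF1 at 0), apart from the lysosomal protein gene CD68, which was 4.45 and 4.10 CPM in ERb1 and 9.29 and 13 CPM in ERb5. In bulk RNA, a higher share of cells of a kind and more RNA per cell cannot be told apart.

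ERb5 differed from ERb1 mostly by higher expression. Of 13915 genes, 649 changed at adjusted p under 0.05 (4.66% of genes tested), 485 higher in ERb5 (3.49%) and 164 lower (1.18%). At least 2-fold changes numbered 297 (2.13%), 279 upward (2.01%) and 18 downward (0.129%), and at least 4-fold changes 138 and 2. The median log2 change was 1.13 among the higher genes and -0.61 among the lower ones, against -0.01 over all genes tested. The libraries of the groups did not overlap in any of the 649 genes, while 43.1% of all genes tested showed no overlap. The count depended on single libraries. It was 125 without ERb1 replicate 1, 175 without ERb1 replicate 2, 298 without ERb5 replicate 2 and 1389 without ERb5 replicate 1, and 421 with only these 4 libraries in the fit.

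Set beside the other libraries, 284 of the 485 higher genes had both ERb5 libraries above all 6 others (9.23% of all genes tested did), and 191 had both ERb1 libraries below all 6 others (6.59%). Among the 164 lower genes, 77 had both ERb5 libraries below all others (6.68% of all genes) and 51 had both ERb1 libraries above them (6.35%). Every called gene already had its ERb5 libraries clear of its ERb1 libraries, as only 43.1% of all genes tested did. The shares over all genes are therefore not a like base for these counts, and no excess is read from them. The ERb5 libraries also differed from each other. Replicate 2 exceeded replicate 1 in 438 of the 485 higher genes (90.3%) and lay under it in 153 of the 164 lower genes, whereas it was the higher of the pair in 45.5% of all genes tested. Most changes were therefore larger in ERb5 replicate 2.

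**Figure D1:**
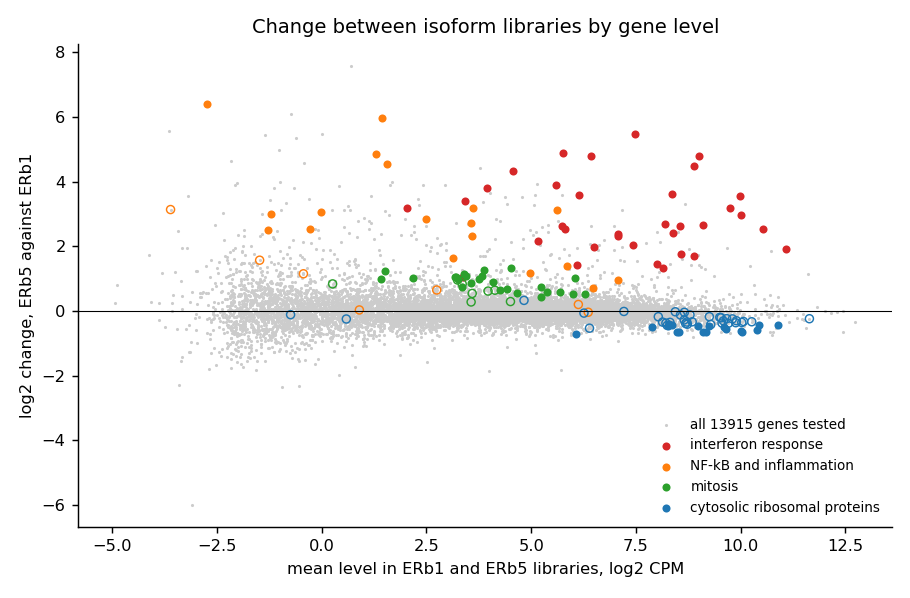
Log2 change of ERb5 against ERb1 (vertical axis) by mean level in the 4 libraries in log2 CPM (horizontal axis), for all 13915 genes tested in grey and for 4 gene lists in colour. Filled points passed at adjusted p under 0.05 and open points did not. All 34 interferon genes lie above 0 and are filled, the mitosis genes lie above 0 in a narrow band, and the highly expressed ribosomal protein genes lie mostly below it.

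Every tested gene of the interferon response list rose. These genes encode antiviral proteins that cells make once type I or type II interferon has bound its receptor, through factors such as STAT2 and IRF9, and many of their promoters hold the interferon-stimulated response element, GAAANNGAAAC. The list had 34 tested members, with a median log2 change of 2.64 and a range from 1.05 to 5.47. Their summed level was 3297 and 3661 CPM in ERb1 and 15031 and 26014 CPM in ERb5. Control libraries stood at 1824 and 1854 CPM and ERb_KO libraries at 11380 and 9421 CPM, so that ERb1 lay between control and ERb_KO, and ERb5 above all 6 other libraries. Within ERb5 the members were higher in replicate 2, by a median of 0.81 on the log2(CPM + 0.5) scale.

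The element was sought on both strands in RefSeq windows (GRCh38.p14) from 250 bases before to 50 after the gene start. It was present in 16 of the 27 interferon genes with a window (59.3%), against 0.822% of the 10579 tested genes with a window, 0.798% of all 27305 windows and 9.59% of the 365 genes called higher. The genes called higher include the members of this list, so their share is not separate from that of the list. The element was found in 1 of 121 genes called lower. IFIT3, chr10:89327747-89328016 (plus strand), and IFI27, chr14:94110486-94110755 (plus strand), are shown as 2 of the 15 largest rises with 2 matches each. The windows run to 20 bases past the gene start, and capitals mark the matches, which are a description of letters and not evidence of binding. No match was found in such windows for RSAD2, CMPK2 or XAF1, which had the largest rises of the list. Only 1 annotated start of a gene and only the 2-base gap of the pattern were searched. The RSAD2 window holds repeats of GAAACGAAA, with a shorter gap, that the pattern does not count. The absence of a match therefore does not show that these genes lack such an element.
IFIT3: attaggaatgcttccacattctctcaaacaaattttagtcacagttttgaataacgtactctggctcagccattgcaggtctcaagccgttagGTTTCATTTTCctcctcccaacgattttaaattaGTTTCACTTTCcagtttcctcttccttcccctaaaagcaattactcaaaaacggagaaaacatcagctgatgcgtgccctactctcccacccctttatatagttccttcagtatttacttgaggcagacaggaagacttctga
IFI27: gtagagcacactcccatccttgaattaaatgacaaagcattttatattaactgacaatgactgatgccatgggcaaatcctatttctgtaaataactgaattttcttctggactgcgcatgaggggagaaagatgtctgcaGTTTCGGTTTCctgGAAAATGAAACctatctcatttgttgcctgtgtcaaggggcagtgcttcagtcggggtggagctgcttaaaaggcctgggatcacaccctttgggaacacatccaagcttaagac

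RSAD2 (GRCh37 chr2:7005688-7038370) encodes viperin, a radical enzyme that makes a chain-terminating nucleotide. It stood at 6.43 and 9.09 CPM in ERb1 and at 190 and 503 CPM in ERb5, with 3.22 and 3.94 CPM in control and 112 and 87.3 CPM in ERb_KO. The ERb5 libraries lay above all 6 others, and the log2 change was 5.47 ± 0.45 (SE, adjusted p = 0.000392). CMPK2, its neighbour on chromosome 2 and a mitochondrial nucleotide kinase, went from 5.04 and 6.74 CPM to 97.1 and 236 CPM (log2 change 4.81 ± 0.42, adjusted p = 0.000438). CMPK2 lost the call without ERb1 replicate 1 (adjusted p = 0.0512).

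IFIT3 (GRCh37 chr10:91087064-91137230), a member of the family that binds viral RNA ends, was 32.3 and 39.1 CPM in ERb1 and 571 and 1418 CPM in ERb5. Its log2 change was 4.81 ± 0.42 (adjusted p = 0.000438). The ERb5 libraries differed 2.49-fold (not on the log2 scale), and the lower of them lay well above both ERb1 libraries. Other IFIT genes rose as well, IFIT2 by 4.48 ± 0.46 and IFIT1, chosen after its values were seen, by 2.97 ± 0.22. XAF1, which promotes cell death, went from 2.88 and 4.10 CPM to 55.1 and 154 CPM (4.88 ± 0.47, adjusted p = 0.000702). The other genes of this response among the 15 largest rises were SAMD9L, which restrains translation (4.34), RTP4 (4.41), the helicase DHX58 (3.90), the guanylate-binding protein GBP4 (3.91), the transcription factor BATF2 (3.91) and IFI27 (3.91). IFIT3 lost the call without ERb1 replicate 1 (adjusted p = 0.0518), and IFIT2, XAF1, RTP4, DHX58, GBP4, BATF2 and IFI27 without either ERb1 library (adjusted p = 0.0532 to 0.0984).

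Members chosen after their values were seen show the same separation at higher levels. OAS3, which makes the messenger that activates RNase L, was 443 and 430 CPM in ERb1 and 2059 and 2949 CPM in ERb5 (log2 change 2.52 ± 0.18, adjusted p = 5.94e-05). The ubiquitin-like modifier ISG15 went from 148 and 167 CPM to 1080 and 2643 CPM (3.57 ± 0.37). Sensors of double-stranded RNA rose too, DDX58 (RIG-I) by 2.68 ± 0.21, IFIH1 (MDA5) by 2.31 ± 0.24 and TLR3 by 3.45 ± 0.44. The interferon list kept its direction in all settings, but 19 of its 34 genes passed without ERb1 replicate 1 and 19 when only the ERb5 and ERb1 libraries were fitted. ISG15 lost the call without either ERb1 library (adjusted p = 0.0617 to 0.0652).

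**Figure D2:**
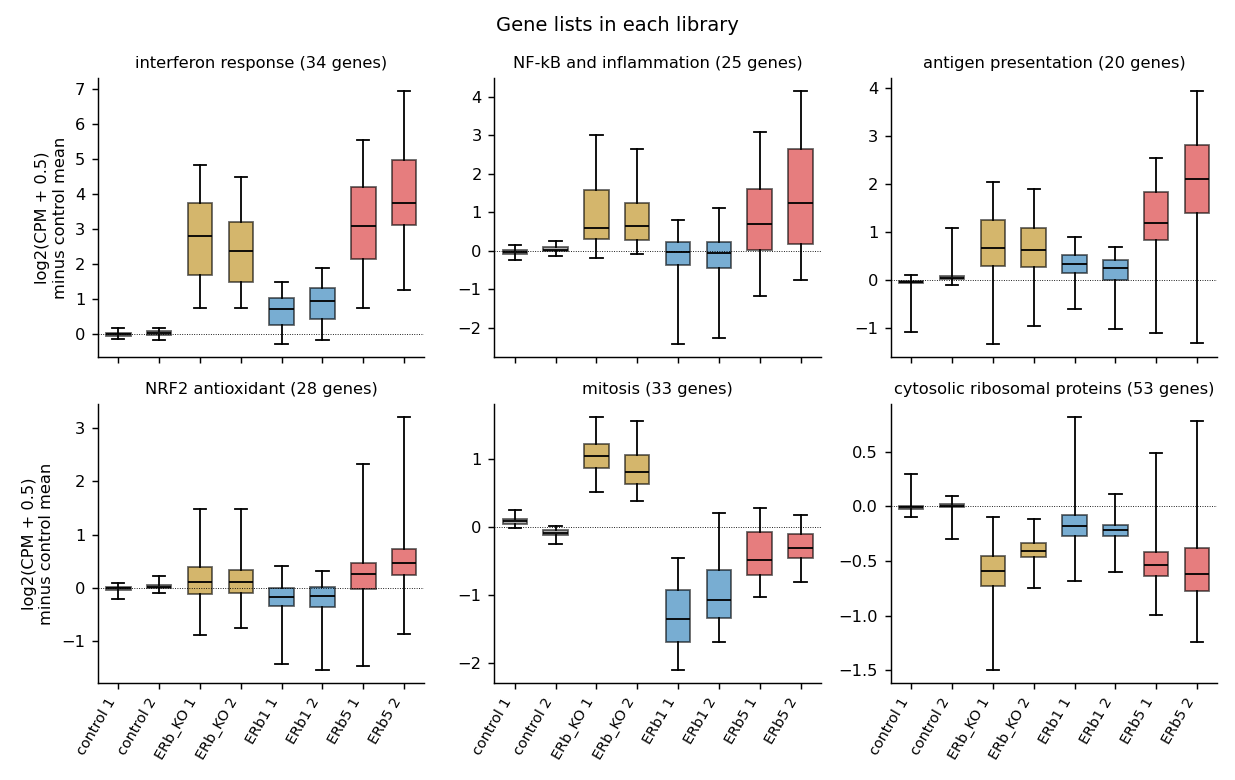
Levels of 6 gene lists in each of the 8 libraries, as log2(CPM + 0.5) minus the mean of the control libraries (vertical axis, scales differ between panels). Boxes span the 25th to 75th percentile of the members with the median as a line, and whiskers reach the lowest and highest member. The 2 ERb5 libraries lie above the 2 ERb1 libraries in median for every list but the ribosomal proteins, where they lie below.

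Of the genes that carry the interferon signal, 7 of 22 receptors, STATs and IRFs rose (3.49% of all genes tested did) and none fell, with a list median of 0.33. STAT2 (GRCh37 chr12:56735381-56753987), a subunit of the factor that type I interferon activates, was 103 and 84.5 CPM in ERb1 and 212 and 330 CPM in ERb5, with 68.4 and 72.6 CPM in control and 181 and 133 CPM in ERb_KO. Both ERb5 libraries lay above all 6 others (log2 change 1.54 ± 0.21, adjusted p = 0.00338). IRF7, a factor that amplifies interferon production, went from 14.2 and 11.8 CPM to 42.1 and 99.8 CPM (2.46 ± 0.34), above the 32.8 and 36.7 CPM of ERb_KO, and IRF1, a factor typical of interferon gamma responses, rose by 1.93 ± 0.26. IRF9, chosen after its values were seen, rose by 1.04 ± 0.13. Calls fell to 2 and 3 of 22 without ERb1 replicate 1 and replicate 2. STAT2, IRF7 and IRF1 lost the call without either ERb1 library (adjusted p = 0.0533 to 0.115).

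Antigen presentation genes, which load peptides onto class I molecules for display to T cells, rose in 15 of 20 and fell in none (list median 1.42). PSMB9, an immunoproteasome subunit, went from 6.35 and 6.09 CPM in ERb1 to 31.4 and 88.5 CPM in ERb5 (log2 change 3.28 ± 0.41, adjusted p = 0.00261), and the ERb5 replicates differed more than 2-fold. NLRC5, the transactivator of class I genes, rose from 13.8 and 11.9 CPM to 54.3 and 120 CPM (2.78 ± 0.34). ERAP2, which trims peptides, rose by 2.34 ± 0.37 and the peptide transporter TAP1 by 2.14 ± 0.28. HLA-B, chosen after its values were seen, was 224 and 246 CPM in ERb1 and 509 and 1048 CPM in ERb5 (1.73 ± 0.28, adjusted p = 0.00779), and reads shared among HLA genes leave such levels uncertain. Calls in this list depended on each ERb1 library: 1 of 20 passed without replicate 1 and 3 of 20 without replicate 2, while the medians stayed at 1.40 and 1.46. PSMB9, NLRC5, TAP1 and HLA-B lost the call without either ERb1 library (adjusted p = 0.0652 to 0.116), and ERAP2 without ERb1 replicate 1 (adjusted p = 0.0652).

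NF-kB targets and inflammatory mediators rose next to the interferon genes. NF-kB is the factor that cytokines such as TNF and IL-1 release from its inhibitor, and its targets include chemokines, acute-phase proteins and the inhibitor itself. Of 25 tested members, 18 rose and none fell, with a median of 2.51, also with PTGS2, which had no read in ERb1, at its bound. The list took 0.0403% and 0.0382% of gene reads in ERb1 and 0.0621% and 0.0934% in ERb5. Control stood at 0.0388% and 0.0400%, close to ERb1, and ERb_KO at 0.0596% and 0.0572%, close to ERb5 replicate 1. The consensus kB site was present in 9 of 18 promoter windows of the list (50.0%), against 6.34% of windows of all tested genes and 12.3% of those of genes called higher. The genes called higher include called members of the list, so those shares are not separate. The list share counts tested members whether called or not, so it describes the list and not the change between libraries. CCL20, chr2:227813592-227813861 (plus strand), and BIRC3, chr11:102317234-102317503 (plus strand), are shown because both rose strongly and hold the site on either strand, in capitals.
CCL20: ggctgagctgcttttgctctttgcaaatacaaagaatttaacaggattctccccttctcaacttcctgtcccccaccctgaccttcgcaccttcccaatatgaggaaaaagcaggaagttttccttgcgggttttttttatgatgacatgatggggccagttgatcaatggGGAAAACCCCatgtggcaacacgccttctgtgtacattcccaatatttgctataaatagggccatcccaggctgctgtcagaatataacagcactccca
BIRC3: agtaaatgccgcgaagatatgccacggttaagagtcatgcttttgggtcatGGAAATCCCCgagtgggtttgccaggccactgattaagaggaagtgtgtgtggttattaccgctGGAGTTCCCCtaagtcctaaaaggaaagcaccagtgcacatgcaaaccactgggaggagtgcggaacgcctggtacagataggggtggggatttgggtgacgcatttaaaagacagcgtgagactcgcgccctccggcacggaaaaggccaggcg

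CCL20 (GRCh37 chr2:228670455-228682280), a chemokine for dendritic and T cells, was 0.112 and 0.312 CPM in ERb1, which is 18 reads in all, and 4.24 and 7.05 CPM in ERb5 (log2 change 4.56 ± 0.42, adjusted p = 0.000207). Control stood at 0.0481 and 0.162 CPM and ERb_KO at 2.20 and 2.69 CPM, below both ERb5 libraries. BIRC3, an inhibitor of apoptosis that also ubiquitinates NF-kB pathway proteins, rose from 1.42 and 3.18 CPM to 14.1 and 29.9 CPM (3.19 ± 0.41, adjusted p = 0.0028, chosen after its values were seen). BIRC3 lost the call without ERb1 replicate 1 (adjusted p = 0.0521).

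The acute-phase gene SAA1 showed the largest rise by the naming rule, 5.97 ± 0.91 (adjusted p = 0.00621). It rests on 6 reads in ERb1 and 305 in ERb5, a ratio of 61.4 with a 95% counting interval from 27.9 to 169, and its levels in ERb5 were 1.89 and 8.72 CPM. SAA2, near-identical in sequence so that reads may be misassigned, had 12 and 275 reads. The prostaglandin synthase PTGS2 had 0 reads in ERb1 and 18 in ERb5, at least 7.25-fold higher against a floor of 3 reads over the ERb1 libraries. SAA1 and SAA2 lost the call without either ERb1 library (adjusted p = 0.073 to 0.142), and PTGS2 without ERb1 replicate 1, ERb1 replicate 2 or ERb5 replicate 2 (adjusted p = 0.075 to 0.153).

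Feedback and signalling members rose as well. IRAK2, a kinase of the IL-1 and Toll-like receptor pathway that is not on the list but is among the 15 largest rises, went from 0.523 and 0.270 CPM to 3.83 and 8.11 CPM (4.0 ± 0.43, adjusted p = 0.000438). Chosen after their values were seen, TNFAIP3, which shuts off NF-kB, rose by 2.31 ± 0.23, the inhibitor NFKBIA by 0.95 ± 0.18, the subunits RELB by 1.63 ± 0.31 and NFKB2 by 0.72 ± 0.16, and the adhesion molecule ICAM1 by 1.40 ± 0.15. The cytokine genes IL8, IL1B, TNF and CSF3, likewise chosen, had 16, 18, 9 and 7 reads in ERb1 and 109, 86, 43 and 48 reads in ERb5. All 4 were higher in ERb5, but IL1B and CSF3 were higher still in control, at 3.03 and 3.38 CPM and 1.35 and 1.97 CPM, than in ERb5, at 1.13 and 1.71 CPM and 0.784 and 0.763 CPM. In the NF-kB list 8 genes passed without ERb1 replicate 1, 8 without replicate 2 and 10 with only the ERb5 and ERb1 libraries fitted. NFKBIA and RELB lost the call without either ERb1 library (adjusted p = 0.0912 to 0.142), NFKB2 and TNF without ERb1 replicate 1, ERb1 replicate 2 or ERb5 replicate 2 (adjusted p = 0.0872 to 0.202), and CSF3 without ERb1 replicate 2 (adjusted p = 0.0872).

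LCN2 (GRCh37 chr9:130911350-130915732) encodes lipocalin 2, which binds iron-carrying siderophores. It was 8.48 and 11.6 CPM in ERb1 and 60.2 and 116 CPM in ERb5, with 29.7 and 30.8 CPM in control and 56.4 and 71.9 CPM in ERb_KO. The ERb1 libraries lay below all others (log2 change 3.12 ± 0.31, adjusted p = 0.000717), while an ERb5 library fell within the range of ERb_KO.

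Antioxidant genes moved in part. NRF2 switches on enzymes that make glutathione, reduce thioredoxin and clear reactive compounds. Of its 28 tested targets, 9 rose and none fell, with a median of 0.40, while 3.49% of all genes tested rose and 1.18% fell. AKR1C1 (GRCh37 chr10:5005445-5025475), a ketosteroid reductase, was 2.47 and 2.29 CPM in ERb1, 19.6 and 40.0 CPM in ERb5, 5.89 and 5.13 CPM in control and 11.4 and 14.4 CPM in ERb_KO. ERb1 was the lowest and ERb5 the highest of the groups without overlap (log2 change 3.66 ± 0.33, adjusted p = 0.000434). Its close copies AKR1C2 and AKR1C3 rose by 3.52 ± 0.31 and 1.92 ± 0.42, and how reads were split among the copies is not known. AKR1C3 lost the call without ERb1 replicate 1, ERb1 replicate 2 or ERb5 replicate 2 (adjusted p = 0.0941 to 0.178).

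HMOX1 (GRCh37 chr22:35776354-35790207), which degrades heme, went from 27.6 and 31.7 CPM in ERb1 to 180 and 332 CPM in ERb5, above the 69.5 and 99.4 CPM of ERb_KO (log2 change 3.11 ± 0.29, adjusted p = 0.00057). Named after their values were seen, TXNRD1 rose by 1.00 ± 0.11, OSGIN1 by 1.73 ± 0.21, SRXN1 by 0.85 ± 0.12 and GCLM by 0.71 ± 0.14, whereas NQO1 had a log2 change of 0.38 ± 0.11 (adjusted p = 0.091). SQSTM1, the autophagy receptor p62, rose from 1937 and 1988 CPM to 3358 and 5240 CPM (1.14 ± 0.19, adjusted p = 0.0057). It was among the 5 of 29 autophagy and lysosome genes that rose (3.49% of all genes tested did), with the proteases CTSS (2.40 ± 0.42) and CTSD (0.95 ± 0.18). That count was 0 without ERb1 replicate 1, 1 without ERb1 replicate 2, 3 without ERb5 replicate 2 and 9 without ERb5 replicate 1. The antioxidant response element, TGACNNNGC on either strand, was in 5 of 21 windows of the NRF2 list (23.8%), against 15% of tested genes, and none was found for AKR1C1 up to 20 bases past its start. The NRF2 count was 15 without ERb5 replicate 1 and 15 with each library's trend on GC content and length removed. OSGIN1 lost the call without ERb1 replicate 2 (adjusted p = 0.0536), GCLM without ERb1 replicate 1, ERb1 replicate 2 or ERb5 replicate 2 (adjusted p = 0.0502 to 0.0995), and SQSTM1 and CTSD without either ERb1 library (adjusted p = 0.0741 to 0.139). CTSS lost the call without ERb1 replicate 1 (adjusted p = 0.0652).

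**Figure D3:**
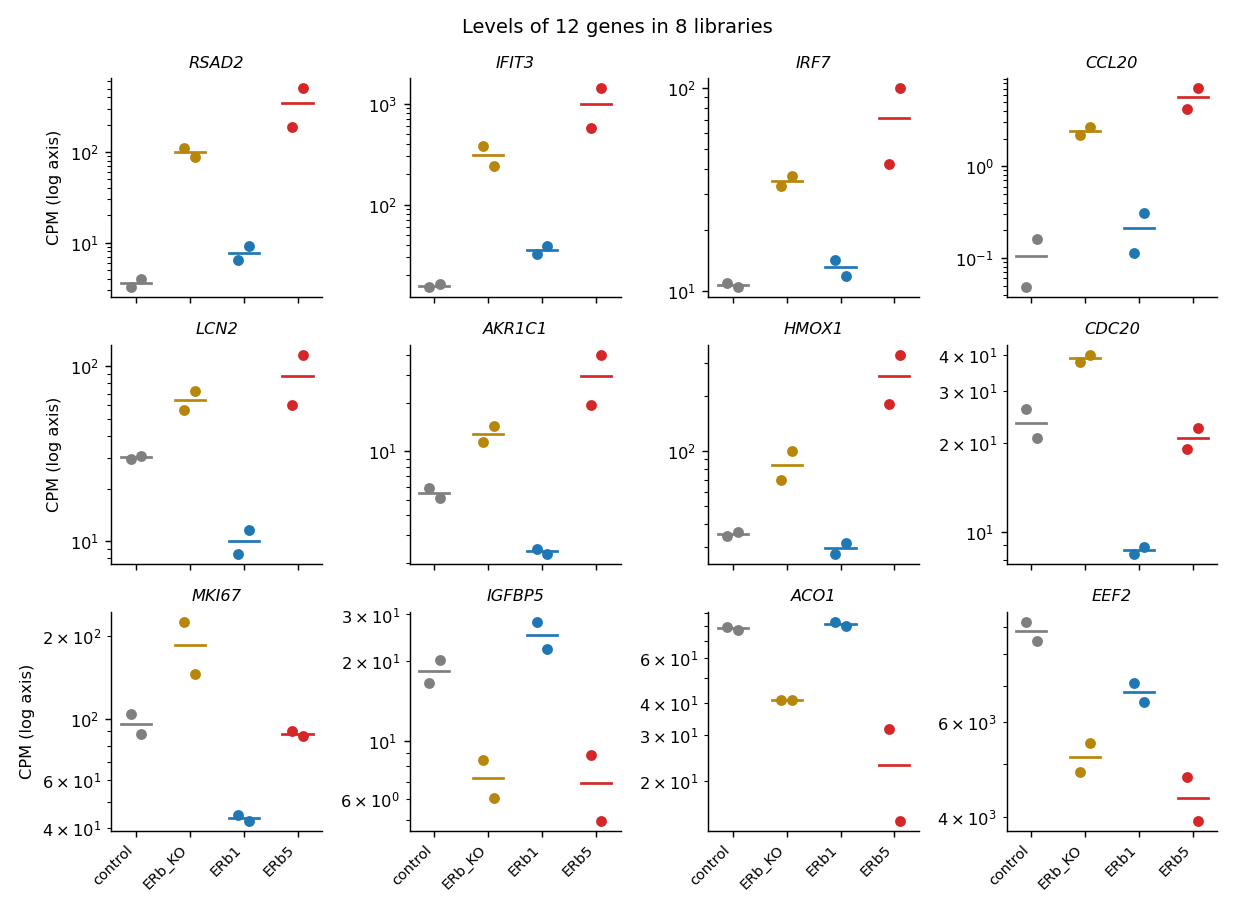
CPM of 12 genes on log axes in the 4 groups, with 1 point per library and a bar at the mean of the 2 libraries. ERb5 is above ERb1 in the 9 genes from RSAD2 to MKI67 and below it in IGFBP5, ACO1 and EEF2. The ERb5 points lie above ERb_KO in RSAD2, IFIT3 and IRF7 but below it in CDC20 and MKI67.

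Genes of mitosis were higher in ERb5 by a modest amount. They encode the kinases, kinetochore proteins and motors that divide chromosomes, and as their RNA peaks in dividing cells they track the share of cycling cells. All 33 tested members had a positive change, from 0.28 to 1.33, 25 passed and the median was 0.84. Their summed level was 492 and 573 CPM in ERb1 and 853 and 908 CPM in ERb5, against 1150 and 1012 CPM in control and 2246 and 1888 CPM in ERb_KO. ERb5 therefore stood above ERb1 but under both other groups.

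Many of these genes share the cell cycle homology region TTTGAA near the start. It occurred on either strand in 21 of 29 mitosis windows (72.4%), against 9.65% of windows of tested genes, 15.4% of all windows and 1 of 29 windows of DNA replication genes. Among genes called higher, which include called members of this list, the share was 21.9%. The mitosis share likewise counts members whether called or not and describes the list. The CCAAT box occurred in 22 of the 29 (75.9%, against 37% of tested genes), but also in 86.4% of histone, 84% of endoplasmic reticulum chaperone and 77.8% of cholesterol synthesis windows. No TTTGAA was found for KIF20A, the member with the largest rise, up to 20 bases past its start. CDC20, chr1:43358731-43359000 (plus strand), and CENPA, chr2:26785806-26786075 (plus strand), are shown as members with large rises, with TTTGAA or its complement in capitals.
CDC20: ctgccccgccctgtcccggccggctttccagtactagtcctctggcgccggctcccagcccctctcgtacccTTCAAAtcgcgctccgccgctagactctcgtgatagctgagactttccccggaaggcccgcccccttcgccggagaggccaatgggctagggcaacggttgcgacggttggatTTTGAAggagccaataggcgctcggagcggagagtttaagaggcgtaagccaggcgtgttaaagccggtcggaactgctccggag
CENPA: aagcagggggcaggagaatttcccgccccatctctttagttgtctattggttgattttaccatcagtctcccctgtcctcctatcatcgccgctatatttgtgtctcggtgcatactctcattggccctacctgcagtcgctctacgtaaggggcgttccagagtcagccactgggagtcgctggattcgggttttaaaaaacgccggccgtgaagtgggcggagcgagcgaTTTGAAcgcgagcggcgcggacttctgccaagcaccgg

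CDC20 (GRCh37 chr1:43824652-43828874), the activator of the anaphase-promoting complex, was 8.41 and 8.90 CPM in ERb1, 19.1 and 22.5 CPM in ERb5, 26.0 and 20.9 CPM in control and 37.7 and 39.8 CPM in ERb_KO. ERb5 overlapped with control and lay clear of ERb1 and ERb_KO (log2 change 1.26 ± 0.15, adjusted p = 0.000719). The spindle motor KIF20A rose by 1.33 ± 0.17, the centromeric histone CENPA by 1.24 ± 0.27 and the kinetochore-associated DLGAP5 by 1.13 ± 0.19. The proliferation marker MKI67 went from 44.6 and 42.7 CPM to 90.4 and 86.4 CPM (1.02 ± 0.17, adjusted p = 0.00503). The regulators MYBL2 and FOXM1, which drive these genes, rose by 0.92 ± 0.11 and 0.62 ± 0.10. CENPA lost the call without ERb1 replicate 1, ERb1 replicate 2 or ERb5 replicate 2 (adjusted p = 0.0508 to 0.171), DLGAP5 without ERb1 replicate 1 (adjusted p = 0.0652), and MKI67 without either ERb1 library (adjusted p = 0.0652 to 0.0837). FOXM1 lost the call without ERb1 replicate 2 (adjusted p = 0.0529).

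Genes of the preceding phase moved less. Of 32 DNA replication genes 31 had a positive change and 4 passed, with a median of 0.26. None passed without either ERb1 library, and 1 passed without ERb5 replicate 2, without either control library or with only the ERb5 and ERb1 libraries fitted. MCM2, chosen after its values were seen, had 0.28 ± 0.11 (adjusted p = 0.208). Homologous recombination genes rose in 3 of 25 (median 0.44), among them BRCA2 (0.89 ± 0.22) and RAD54L (0.80 ± 0.20), and deoxynucleotide synthesis genes in 2 of 12, RRM2 (0.67 ± 0.14) and TK1 (0.71 ± 0.13). For comparison with these lists and the replication list, 3.49% of all genes tested were called higher. CCND1, which drives entry into the cycle, had -0.37 ± 0.12 (adjusted p = 0.108), the inhibitor CDKN1A -0.38 ± 0.19 (adjusted p = 0.334) and MYC 0.02 ± 0.10 (adjusted p = 0.957). The mitosis count fell to 4 without ERb1 replicate 1, to 14 without either ERb1 replicate 2 or ERb5 replicate 2, and to 3 for a change above 1.5-fold. BRCA2 lost the call without ERb1 replicate 1, ERb5 replicate 1 or ERb5 replicate 2 (adjusted p = 0.105 to 0.151), and RAD54L, RRM2 and TK1 without ERb1 replicate 1, ERb1 replicate 2 or ERb5 replicate 2 (adjusted p = 0.057 to 0.281).

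The genes lower in ERb5 were led, by count, by the translation machinery. Cytosolic ribosomal protein genes had a negative change in 52 of 53 tested members, 18 of them passed and none rose (median -0.36). They took 3.80% and 3.70% of gene reads in ERb1, 2.95% and 2.83% in ERb5, 4.27% and 4.33% in control and 2.84% and 3.25% in ERb_KO. RPL3 was 1313 and 1231 CPM in ERb1 and 902 and 714 CPM in ERb5 (log2 change -0.65 ± 0.12, adjusted p = 0.00835), and RPL10 (-0.66) and RPL15 (-0.65) changed alike. Ribosomal protein genes have many processed pseudogenes, and 34.7% to 37.8% of reads in these libraries had no single place and were not counted. RPL3 and RPL10 lost the call without either ERb1 library (adjusted p = 0.0537 to 0.078), and RPL15 without ERb1 replicate 1, ERb1 replicate 2 or ERb5 replicate 2 (adjusted p = 0.0655 to 0.129).

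Messenger RNAs of this class start with a terminal oligopyrimidine tract, the sequence through which mTOR governs their translation. A tract, scored as C at the annotated start followed by at least 4 C or T, was present in 28 of 41 ribosomal protein windows (68.3%), in 37 of 121 genes called lower (30.6%), in 3.56% of genes called higher and in 5.42% of tested genes. Ribosomal protein genes that passed are among the genes called lower, so those shares are not separate. No tract was scored for RPL3. Other messages known to begin so, a list written after values were seen, fell in 14 of 18, with a median of -0.58. That count was 0 without ERb1 replicate 1, 3 without ERb1 replicate 2, 3 without ERb5 replicate 2 and 0 for a change above 1.5-fold. RPS6, chr9:19380207-19380286 (minus strand), EEF2, chr19:3985434-3985513 (minus strand), and EIF4B, chr12:53006406-53006485 (plus strand), are shown from 50 bases before the start, with the tract in capitals.
RPS6: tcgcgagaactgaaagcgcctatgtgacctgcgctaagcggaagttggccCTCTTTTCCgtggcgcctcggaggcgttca
EEF2: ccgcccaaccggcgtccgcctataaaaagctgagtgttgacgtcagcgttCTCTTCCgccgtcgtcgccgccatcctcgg
EIF4B: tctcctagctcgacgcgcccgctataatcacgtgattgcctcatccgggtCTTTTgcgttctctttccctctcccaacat

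EEF2 (GRCh37 chr19:3976054-3985461), the elongation factor that moves the ribosome along the message, was 7079 and 6537 CPM in ERb1 and 4739 and 3930 CPM in ERb5, with 9195 and 8488 CPM in control and 4835 and 5488 CPM in ERb_KO. Both ERb5 libraries lay below all others (log2 change -0.65 ± 0.12, adjusted p = 0.0107, chosen after its values were seen). EIF4B, which helps unwind messages, fell by 0.81 ± 0.15, PABPC1 by 0.64 ± 0.13, EEF1A1 by 0.68 ± 0.14 and RPS6 by 0.60 ± 0.12 on the log2 scale (all likewise chosen). GAS5, a noncoding RNA of the same start class, fell by 0.67 ± 0.15. These changes were small, and their number depended on single libraries. The ribosomal count was 0 without either ERb1 library, 3 without ERb5 replicate 2, 9 without either control library and 34 with no low-count filter, while its median ranged from -0.39 to -0.34 in those fits. EEF2, PABPC1, EEF1A1, RPS6 and GAS5 lost the call without ERb1 replicate 1, ERb1 replicate 2 or ERb5 replicate 2 (adjusted p = 0.057 to 0.152), and EIF4B without either ERb1 library (adjusted p = 0.0652 to 0.0826).

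**Figure D4:**
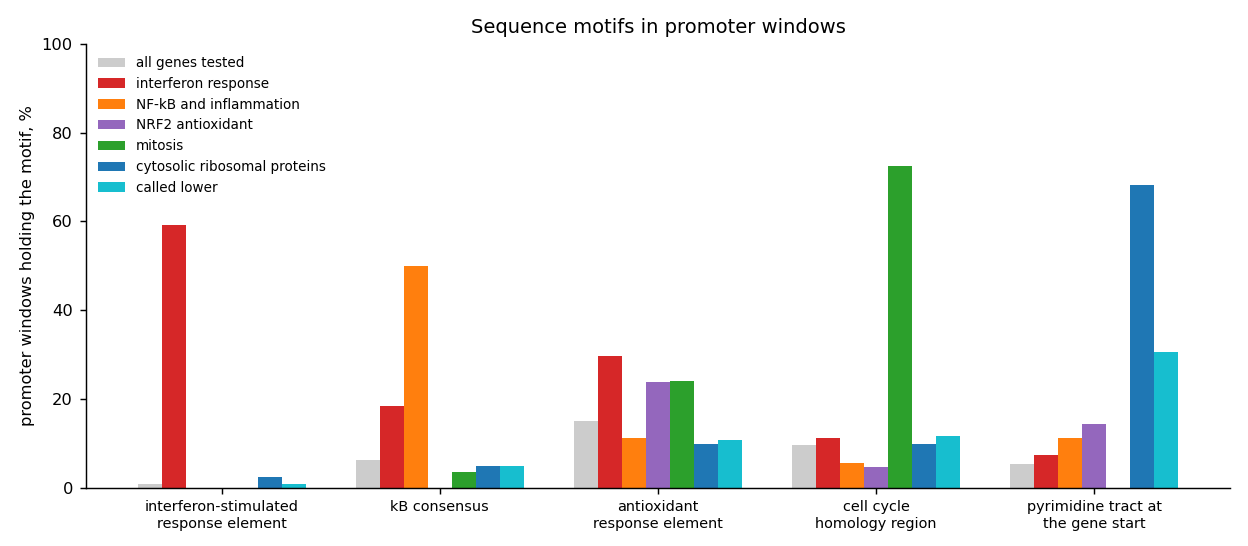
Percent of promoter windows (vertical axis) that hold each of 5 motifs, for all genes tested, for 5 gene lists and for the genes called lower in ERb5. The motif searched for with each list was found in unlike shares: 59.3% of interferon windows hold the interferon-stimulated response element, 50.0% of NF-kB windows the kB site, 23.8% of NRF2 windows the antioxidant response element, 72.4% of mitosis windows the cell cycle homology region and 68.3% of ribosomal protein windows a pyrimidine tract.

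The largest falls by the naming rule had other roles. IGFBP5 (GRCh37 chr2:217536828-217560272), a binding protein of insulin-like growth factors, was 28.1 and 22.2 CPM in ERb1, 8.80 and 4.98 CPM in ERb5, 16.5 and 20.1 CPM in control and 8.42 and 6.05 CPM in ERb_KO. ERb1 was above and ERb5 below control, with ERb5 overlapping ERb_KO (log2 change -1.85 ± 0.24, adjusted p = 0.00167). HOPX, a homeodomain protein that does not bind DNA, fell from 8.52 and 8.72 CPM to 3.37 and 2.33 CPM (-1.59 ± 0.19, adjusted p = 0.000903).

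ACO1 (GRCh37 chr9:32384601-32454767) encodes the iron regulatory protein 1, a cytosolic aconitase that binds iron-responsive elements when iron is scarce. It went from 82.9 and 79.98 CPM in ERb1 to 31.8 and 14 CPM in ERb5 (log2 change -1.82 ± 0.28, adjusted p = 0.00654), and the call was lost without either ERb1 library. Its messenger target FTH1 had 0.51 ± 0.14 (adjusted p = 0.0678, chosen after its values were seen). Smaller falls included the chaperone CLGN (-1.11 ± 0.20), the secreted protein CRISP3 (-1.31 ± 0.27), the metalloproteinase inhibitor TIMP3 (-0.91 ± 0.19), the retinoic acid binding protein CRABP1 (-0.91 ± 0.16), the GABA receptor subunit GABBR2 (-1.02 ± 0.25) and BCAS1 (-0.86 ± 0.13). Among chaperones of the endoplasmic reticulum 3 of 27 fell, HSP90B1 (-0.66 ± 0.11), PDIA4 (-0.65 ± 0.12) and CRELD2 (-0.61 ± 0.13), and of p53 targets 3 of 22 fell, ZMAT3, CCNG1 and PLK2 (-0.72, -0.69 and -0.41), while none rose. The share called lower over all genes tested was 1.18%. ACO1, CRABP1 and HSP90B1 lost the call without either ERb1 library (adjusted p = 0.0553 to 0.0835), CLGN, ZMAT3 and CCNG1 without ERb1 replicate 2 or ERb5 replicate 2 (adjusted p = 0.0872 to 0.249), and CRISP3, TIMP3, GABBR2, CRELD2 and PLK2 without ERb1 replicate 1, ERb1 replicate 2 or ERb5 replicate 2 (adjusted p = 0.0876 to 0.221). BCAS1 lost the call without ERb1 replicate 1 (adjusted p = 0.0581), and PDIA4 without ERb1 replicate 1 or ERb5 replicate 2 (adjusted p = 0.0604 to 0.0927).

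Estrogen response genes changed in part. Of 26 targets of the estrogen receptor alpha, 4 rose and none fell, with a median of 0.15. This is 15.4% called, against 4.66% of all genes tested. The 4 were CTSD (0.95 ± 0.18), HSPB8 (0.78 ± 0.17), AGR2 (0.55 ± 0.11) and RARA (0.42 ± 0.11). TFF1, the classical target, was 253 and 261 CPM in ERb1 and 336 and 466 CPM in ERb5 but did not pass (0.65 ± 0.17, adjusted p = 0.0587). The receptors ESR1 (-0.06 ± 0.12, adjusted p = 0.823) and GPER (-0.18 ± 0.17, adjusted p = 0.636) did not pass, nor did EGFR (0.45 ± 0.17, adjusted p = 0.186), and PGR was too low to test. The palindromic estrogen response element, GGTCANNNTGACC, was in none of the 365 windows of higher genes, in none of the 121 of lower genes and in 1 of 10579 windows of tested genes. An element this rare in the windows cannot tell these gene groups apart, and sites outside the windows were not searched. No conclusion on receptor action is drawn from it. CTSD lost the call without either ERb1 library (adjusted p = 0.0978 to 0.139), and HSPB8, AGR2 and RARA without ERb1 replicate 1, ERb1 replicate 2 or ERb5 replicate 2 (adjusted p = 0.0753 to 0.281).

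Several lists had no gene that passed at adjusted p under 0.05: steroid receptors and coregulators (14 tested, median -0.06), PI3K and mTOR signalling (22, -0.04), TGF-beta and BMP pathway (26, -0.10), epithelial adhesion and junctions (24, 0.02), keratins (12, 0.02), glycolysis and hypoxia response (34, 0.01), nuclear respiratory chain (40, -0.07), mitochondrial ribosomal proteins (38, 0.03), ribosome biogenesis (30, 0.06) and splicing factors (30, -0.01). A result that did not pass with 2 libraries a group does not show equal levels. The remaining lists had between 1 and 3 changed genes in a direction.

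**Figure D5:**
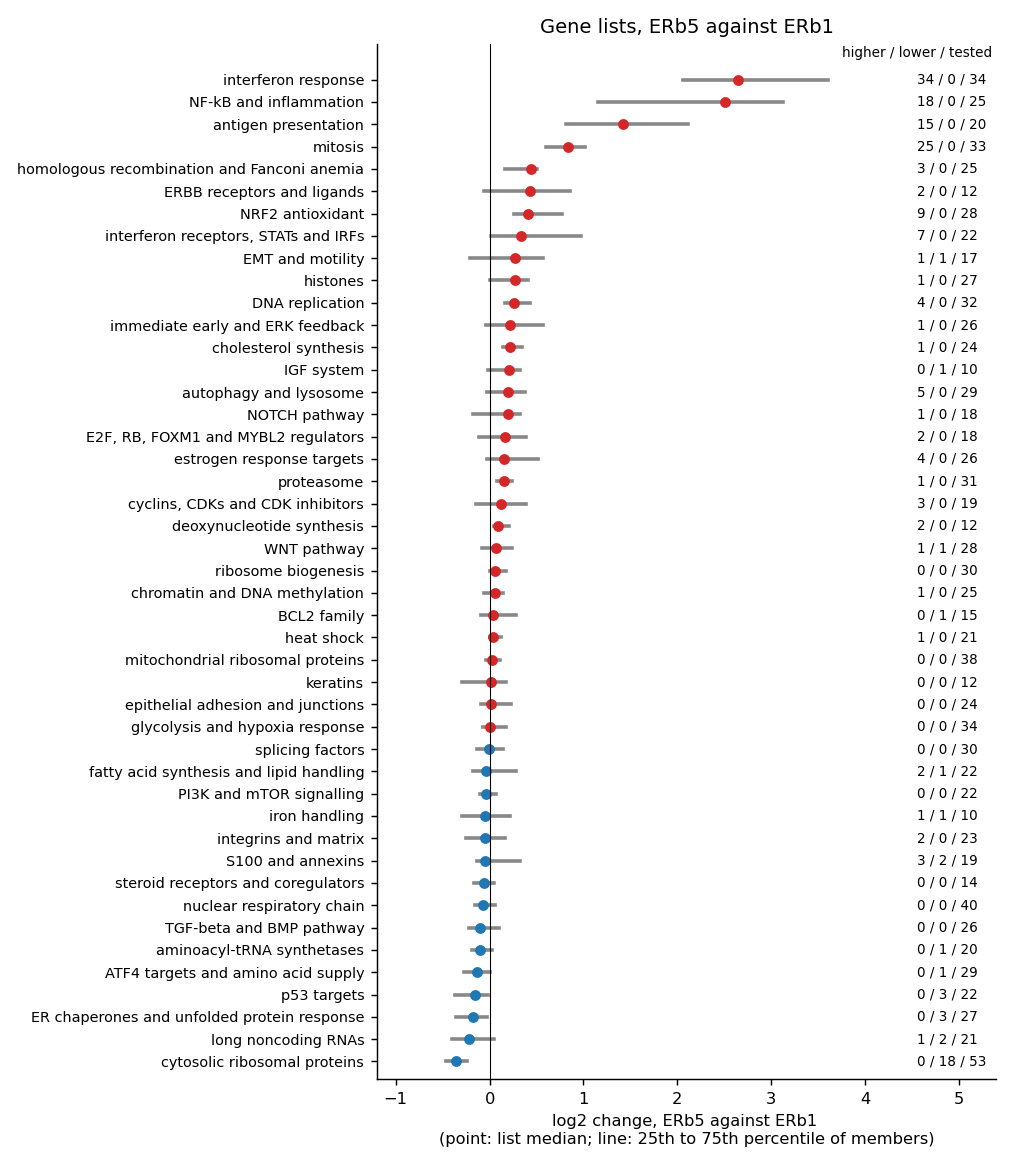
Median log2 change of ERb5 against ERb1 (points) and the 25th to 75th percentile of members (lines) for each gene list, with the numbers of members higher, lower and tested at the right. Cell type marker lists and lists written after values were seen are not drawn. Interferon, NF-kB, antigen presentation and mitosis lists lie highest, at 2.64, 2.51, 1.42 and 0.84, and cytosolic ribosomal proteins lowest of the lists drawn, at -0.36.

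The 4 libraries also differed in technical measures, not all of which moved with the groups. Reads without a single place were 37.7% and 37.8% in ERb1 and 35.5% and 34.7% in ERb5, and the median change over deciles of GC content ran from -0.09 at 36.8% GC to 0.12 at 64.1% GC. The part of these measures in the results was not tested, beyond the fit with GC and length trends removed. In that fit the interferon, mitosis and ribosomal medians were 2.72, 0.90 and -0.35.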

How the data were processed

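Total RNA from 8 libraries (4 groups of 2, assigned by title) was sequenced from 1 end of each fragment, 50 bases a read. The deposited files hold whole-number read counts for each gene, without normalization. Per the submitters' processing notes, the authors used bcl2fastq, TopHat2 2.0.8b on hg19 and HTSeq. For HTSeq, the version, strand setting and annotation were not given in the sources used here. Antisense reads therefore cannot be told apart from those of the gene they overlap. The 5 rows of each file that name no gene were left out. They held reads without a single place (34.7% to 39.9% of all), in no gene (7.01% to 7.79%) and ambiguous (0.540% to 0.561%). Reads shared by near-identical copies (ribosomal proteins, histones, HLA, AKR1C and SAA genes) make those levels uncertain.

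Genes were filtered with filterByExpr (minimum count 10, minimum total 15), scaled by TMM and tested with edgeR 4.0.16 in R 4.3.3 (quasi-likelihood F test, robust), with all 8 libraries in 1 fit and no replicate term, and Benjamini-Hochberg adjustment over 13915 genes. A gene was called at adjusted p under 0.05. Standard errors (SE) were obtained as log2 change over the root of F. CPM of a library uses its total gene count. The scripts were tested on simulated data. Counting intervals and floors cover counting error only.

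Named genes are the 15 largest rises and 15 largest falls among called genes whose higher group averages 5 CPM or more and whose groups do not overlap, up to 4 called members of each list by size of change, and ESR2, ESR1, GPER, PGR, CDKN1A, CCND1, MYC, EGFR, MKI67 and TFF1. Other genes are said to be chosen after their values were seen. Some genes that this rule covers are not reported here. The comparison, the gene lists and the alternatives were chosen with earlier results of these data known. Gene positions come from GENCODE on GRCh37, the build of hg19, matched for 13268 tested genes (95.4%). Promoter windows come from RefSeq on GRCh38.p14 and were found for 10579 tested genes.

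Replicate numbers recur across groups, but the labels do not say that a number marks a shared culture or batch. Alternatives were relative log expression and upper-quartile factors, no filter or a minimum of 1 CPM in 2 libraries, DESeq2 1.42.0, a minimum change of 1.5-fold, the replicate block, removal of GC and length trends (lowess span 0.3), both together, only the 4 libraries compared, and leaving out each library.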

Additional observations from a re-analysis of the deposited data

How the results depend on the processing

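The count of genes changed was 649, and stayed within 1.5 times of this with relative log expression factors (651), upper-quartile factors (671), a 1 CPM minimum (613) and DESeq2 (900). It was 1375 without a low-count filter, 189 for a minimum change of 1.5-fold, 1047 with GC and length trends removed, 421 with only the ERb5 and ERb1 libraries, and 125 to 1389 when a library was left out. Genes higher in ERb5, 485 in the fit reported, numbered 867, 184, 686 and 320 in those 4 settings and 109 to 897 when a library was left out. Genes lower, 164, numbered 508, 5, 361 and 101, 273 with DESeq2 and 16 to 492 when a library was left out (93 without either control library). Genes changed at least 2-fold, 297, numbered 188 for the minimum change of 1.5-fold and 98 to 464 when a library was left out. The share of changed genes that were higher was 74.7%, against 63.1% without a filter and 97.4% for the minimum change of 1.5-fold. Fewer samples or a stricter null make some of these counts smaller by construction; otherwise the cause was not tested.

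With the replicate number as a block 652 genes changed, of which 604 were among the 649. The pairing is only a shared number: deviations of same-numbered ERb1 and ERb5 libraries from their group means had a correlation of -0.10 across genes, and no crossed pairing was fitted. With the block and GC and length trends removed, 1168 genes changed, 762 higher and 406 lower.

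No called gene named here reversed. Genes that did not pass changed sign: when a library was left out ESR1 ranged from -0.22 to 0.073, ESR2 from -0.64 to 0.29 and MYC from -0.070 to 0.11 (log2 change). With 2 libraries a group, and ERb5 libraries that differ (chi-square per degree of freedom 41.4 between them, 21.5 between the ERb1 libraries), calls of all sizes depended on the library left out: of 194 called genes named by the rule or chosen, 144 lost the call without ERb1 replicate 1, 125 without ERb1 replicate 2, 79 without ERb5 replicate 2 and 2 without ERb5 replicate 1.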

Other observations

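Gene families outside the lists, grouped by name after their values were seen, followed the interferon and NF-kB genes. All 4 tested guanylate-binding protein genes, which attack vacuoles of intracellular microbes, were higher in ERb5, from GBP2 (33.4 and 31.1 CPM in ERb1, 42.4 and 59.9 CPM in ERb5) to GBP1 (3.55 and 4.22 CPM, then 22.7 and 55.0 CPM) and GBP4. All 4 tested apolipoprotein L genes were higher too, with APOL1, the trypanosome lytic factor, at 7.74 and 8.38 CPM in ERb1 and 59.97 and 135 CPM in ERb5 and a family median log2 change of 2.71. Neither family kept a call in the fit without ERb1 replicate 1 (0 of each), and 1 gene of each passed without ERb1 replicate 2.

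Of 12 complement genes tested, 5 were higher (3.49% of all genes tested were) and none lower, with a median of 0.28. The activating components CFB (4.82 and 5.60 CPM in ERb1, 32.7 and 93.3 CPM in ERb5), C3 (3.66 and 2.58 CPM, then 8.80 and 31.9 CPM), C1S and C1R rose by 3.59 ± 0.44, 2.73 ± 0.54, 2.62 ± 0.44 and 2.03 ± 0.37 on the log2 scale. No complement gene passed without either ERb1 library. Ceruloplasmin (CP), a copper-carrying ferroxidase and acute-phase protein, was 2.02 and 2.97 CPM in ERb1 and 17.4 and 35.2 CPM in ERb5 (log2 change 3.36 ± 0.34, edgeR adjusted p = 0.000714), and it passed without each library in turn. IFITM1, which blocks viral entry, was 72.3 and 79.1 CPM in ERb1 and 476 and 1002 CPM in ERb5, with 29.5 and 31.7 CPM in control.

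Of 19 tested genes of the S100 and annexin families of calcium-binding proteins, 3 were higher, S100P, S100A9 and S100A7, and 2 lower, S100A14 and ANXA6, with a median log2 change of -0.05. Among all genes tested, 3.49% were higher and 1.18% lower. S100P went from 4.15 and 4.47 CPM to 14.1 and 47.8 CPM (log2 change 2.84 ± 0.49, edgeR adjusted p = 0.0124), and S100A9 from 0.785 and 1.02 CPM to 3.02 and 15 CPM. S100A7 had 1 read in ERb1 and 44 in ERb5, a ratio of 53.1 with a 95% counting interval from 9.05 to 2146. ANXA6 fell by 0.53 ± 0.13 on the log2 scale (edgeR adjusted p = 0.0408). No gene of these families passed in edgeR's test without either ERb1 library (S100P adjusted p = 0.142 and 0.201, ANXA6 0.166 and 0.0941), and without ERb5 replicate 2 only 1 did.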
